A study of Mus musculus with 230 samples.

Results

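Nerve injury at 12 months of age was measured in 6 low-input RNA libraries of mouse sensory neurons, 3 from injured and 3 from intact neurons. They were taken as the libraries whose labels give low-input RNA at 12 months, and they are 6 of the 18 low-input RNA libraries and of the 230 samples in the series. The mice of every group were C57BL/6 X CAST/Ei crosses. Neurons were picked by hand from enzymatically dissociated lumbar dorsal root ganglia (L4 and L5, which send axons into the sciatic nerve), the nucleus was removed, and the cytoplasm was amplified with SMART-seq2, a full-length method that starts from polyadenylated RNA. The injury was to the sciatic nerve. The time between injury and collection and the number of neurons in a library are not given in the sources used here. Whether replicates came from separate animals is not given either, so the p-values below measure only the spread between libraries. For the gene tests that spread was estimated over all 18 low-input RNA libraries and not over these 6 alone. The other 2 ages used for comparison, 1 and 8 months, have 3 injured and 3 intact libraries each. The 12-month libraries had no count of 4 Y-linked genes and 5 of 6 had Xist counts, whereas all 12 libraries of the other ages had Y-linked counts, so age and sex cannot be told apart in any comparison between ages.

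A sensory neuron of the dorsal root ganglion sends 1 axon branch to the periphery and another to the spinal cord. When the peripheral branch is cut or crushed, signals carried back along the axon switch on transcription factors such as Atf3, Sox11, Stat3 and Smad1 in the cell body, followed by genes for growth cones, tubulins, adhesion molecules and neuropeptides. Peptides that are scarce in resting neurons, above all galanin and neuropeptide Y, are well known to appear after axotomy. Rebuilding an axon also draws on membrane lipid synthesis, protein synthesis and mitochondrial ATP supply.

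The libraries of the 2 conditions differed in composition before any gene was compared. A single feature, CT010467.1, held 33.3%, 39.0% and 29.4% of the endogenous counts in injured replicates 1 to 3 and 64.2%, 93.8% and 80.9% in intact replicates 1 to 3. ERCC spike-in RNA made up 2.14%, 4.09% and 1.23% of all counts in injured and 16.01%, 15.2% and 22.9% in intact libraries. The groups did not overlap in either measure, nor in genes detected (18645 to 20127 against 10777 to 15197), each with p = 0.1 in a two-sided exact permutation test, the smallest p that 3 against 3 allow. After removal of the spike-ins and of CT010467.1, 5346800 to 6812000 counts were left in injured libraries, and 4763900, 770330 and 1789200 in intact replicates 1, 2 and 3. Intact replicate 2 stood apart. Lars2 took 31.5% of its remaining counts and mitochondrial transcripts 40.5%, against 0.311% to 1.93% and 2.19% to 3.55% in the other 5 libraries. Levels are given as CPM, the deposited counts scaled to library size by the trimmed mean of M-values (TMM). One count was worth 3.93 CPM in intact replicate 2 and at most 0.5004 CPM in the others. Values are given with all 6 libraries, and the number of calls in a gene list is also given without this one where it differs. Per-gene levels were alike among injured libraries (Spearman's rho across genes 0.955 to 0.971) and less so among intact ones (0.655 to 0.876).

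**Figure D1:**
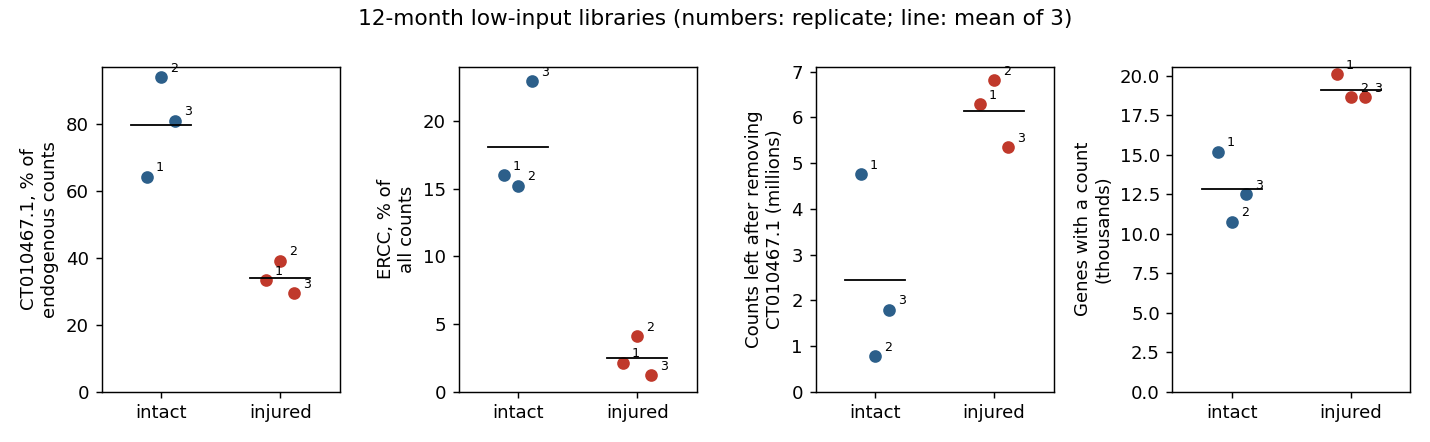
Each point is 1 of the 6 libraries (number, replicate) and each line the mean of 3. From left to right, the share of endogenous counts in CT010467.1, the share of ERCC spike-ins, the counts left and the genes with a count are shown; injured and intact libraries do not overlap in any of the 4, and intact replicate 2 has the highest CT010467.1 share (93.8%) and the fewest counts left (770330).

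Of 14084 genes tested with edgeR, 437 (3.1%) passed an adjusted p of 0.05 between injured and intact neurons. Of these, 347 were higher after injury (2.46% of genes tested) and 90 lower (0.639%). In 26% of all genes tested, called or not, the 2 conditions did not overlap. Without intact replicate 2, 587 of 14858 genes were higher (3.95%) and 422 lower (2.84%), and 322 higher (2.29%) and 69 lower (0.49%) genes were called both ways in the same direction. The median log2 change of all genes was 0.14. The share of calls that were higher, 79.4%, was 65.7% with relative log expression scaling, 64.9% with upper-quartile scaling and 53.4% with limma-voom. Scaling to the ERCC totals instead moved the median of all genes up by 5.21 on the log2 scale, so that 13506 genes were called and all were higher. All changes below are therefore relative to the other transcripts of the same library, and every gene named below as lower had a positive estimate on the ERCC scale. In these pooled cells, fewer cells of a type and less RNA per cell cannot be told apart. The count of calls rested on every library of this age: it was 128, 106 and 161 without injured replicate 1, 2 or 3, and 587, 1009 and 270 without intact replicate 1, 2 or 3. It also moved by over 1.5 times without 1 of 5 libraries of the other ages, which enter the same filter and fit (284, 282 and 270 without injured replicate 1, 2 or 3 at 1 month, 667 without intact replicate 1 and 275 without injured replicate 3 at 8 months).

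Of the 112 genes named by rule, 74 were called, 47 higher and 27 lower. The calls of 31 (25 higher and 6 lower) held when any 1 of the 6 libraries was left out, and the text leads with these. With only the 12-month libraries in the fit, which then give the spread alone, 48 of the 74 calls were lost. The calls of 10, all higher, held in each of the 29 alternatives run: Sprr1a, Npy, Nts, Atf3, Tubb6, Cacna2d1, Cckbr, Ncam1, Chl1 and Gadd45g.

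Induced neuropeptides and secreted factors had the highest median change of the lists examined. Of the 24 genes in this list, listed as induced by injury, 17 passed the expression filter. A member without an intact count at 12 months could pass only through other libraries, so the filter and the choice of list favour high changes. Of the 17 tested, 9 rose and 0 fell, beside 2.46% and 0.639% of all genes tested. Their median log2 change was 7.09 against 0.14 for all genes, and 5.13 with genes absent from intact libraries set at their floor (below). Npy, which encodes neuropeptide Y (chromosome 6, 49822710 to 49829507), was at 1627, 1938 and 1627 CPM in injured replicates 1 to 3 and at 1.75, 7.87 and 0 CPM in intact replicates 1 to 3, a log2 change of 10.13 ± 1.45 (SE, adjusted p = 0.0024). Nts, the precursor of neurotensin (chromosome 10, 102481756 to 102490486), was at 704, 486 and 556 CPM against 1.17, 0 and 0 CPM (9.58 ± 1.05, adjusted p = 0.000289). Both were high in all 3 injured libraries and had only 11 and 6 counts in the intact libraries together.

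Gal, which encodes galanin (chromosome 19, 3409919 to 3414472), was at 2213, 1280 and 836 CPM in the injured libraries, with 28745 counts in all, and had no count in any intact library. Against a floor of 3 counts over the intact group it was at least 3611-fold higher (adjusted p = 0.00234). Ucn, the corticotropin-releasing factor relative urocortin (chromosome 5, 31138063 to 31138829), was at 35.3, 32.7 and 43.9 CPM with no intact count, at least 90.8-fold higher (adjusted p = 0.00217). Ecel1, a membrane metallopeptidase known to be induced by axon damage, was at 88.9, 32.5 and 64.6 CPM with no intact count, at least 151-fold higher (adjusted p = 0.00799). The transporter gene Slc6a4, which encodes the serotonin transporter, was at 31.4, 97.3 and 37.01 CPM and also without an intact count, at least 140-fold higher (adjusted p = 0.00495). The calls of Gal, Ucn and Ecel1 were lost in 1 of 29 alternatives each, limma-voom, and that of Slc6a4 in 2. Pde1a, a calcium-dependent phosphodiesterase, and Pdpn, the membrane glycoprotein podoplanin, were likewise at 4.63, 70.9 and 65.3 and at 23.9, 37.5 and 20.6 CPM with no intact count, at least 115-fold and 68.5-fold higher. Depth sets how far these zeros can be read, since 1 count in intact replicate 1, the deepest of the 3, was worth 0.195 CPM.

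The secreted proteins Fst (follistatin, an activin antagonist), Igfbp3 and Fgf3 and the genes Car1 and Trp53i11 complete the 12 largest increases. They too had no intact count, and were at least 234-fold, 132-fold, 65.2-fold, 117-fold and 161-fold higher. Their calls depended on single libraries: without intact replicate 3 all 5 were lost, without intact replicate 1 all but Fst, and without any 1 injured library those of Fgf3 and Trp53i11. Adcyap1, the precursor of the peptide PACAP, rose from 3.12, 0 and 0 to 163, 328 and 340.3 CPM (7.25 ± 1.48, adjusted p = 0.0173), a call lost without intact replicate 3 and without injured replicate 2. Without intact replicate 3 the group had 5 calls in place of 9, and without intact replicate 2 it had 10 of 18 (median 7.11).

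Sprr1a, a small proline-rich protein that growing axons carry (chromosome 3, 92483952 to 92485895), was at 1373, 2606 and 1647 CPM after injury and 0.974, 0 and 1.501 CPM in intact libraries. Its log2 change of 10.71 ± 1.18 had an adjusted p of 0.000289. Atf3, the stress-induced transcription factor most used as a marker of axotomy (chromosome 1, 191170296 to 191218039), was at 1041, 1243 and 833 CPM against 6.04, 0 and 13.01 CPM (7.02 ± 1.05, adjusted p = 0.00308). Neither gene overlapped between conditions, which the naming rule required of Sprr1a, and both were near 0 in every intact library.

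Promoter sequence is shown for 4 of the called genes whose RefSeq promoter window (GRCm38.p6, from 250 bases before to 50 after a transcript start) holds the letters bound by the Atf3 family of leucine-zipper factors. The letters searched on both strands were TGANTCA (the AP-1 site) and TGACGTCA (the cyclic AMP response element), and a match of one is never a match of the other. Capitals mark each match, each stretch ends before the start, and each is written on the strand of its gene. Sprr1a (chr3:92485951-92486067, minus strand) holds 2 AP-1 sites, the first starting 146 bases before the start, Nts (chr10:102490579-102490665, minus strand) holds 1, at 207 bases before, and Ucn (chr5:31138896-31138979, minus strand) and Fscn1 (chr5:142960270-142960354, plus strand) each hold 1 cyclic AMP response element, at 44 and 45 bases before.
Sprr1a: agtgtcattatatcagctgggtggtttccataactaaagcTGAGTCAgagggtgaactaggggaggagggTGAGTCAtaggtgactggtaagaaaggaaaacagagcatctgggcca
Nts: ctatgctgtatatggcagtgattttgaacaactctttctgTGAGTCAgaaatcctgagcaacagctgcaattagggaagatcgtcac
Ucn: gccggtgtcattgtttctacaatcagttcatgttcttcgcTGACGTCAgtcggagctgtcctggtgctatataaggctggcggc
Fscn1: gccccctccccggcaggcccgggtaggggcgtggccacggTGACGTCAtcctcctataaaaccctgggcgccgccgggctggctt
Fscn1, which bundles actin in growth cones and was picked here for its promoter after its values were seen, was at 122, 110 and 82.8 CPM after injury and 0.195, 0 and 0 CPM in intact libraries, the first from 1 count. Of the 322 genes called higher both ways, 246 matched a RefSeq promoter by symbol, with 303 windows. AP-1 letters were in 7.92% of these and in 7.81% of all 32851 windows (5.1% for the genes tested), and the cyclic AMP response element in 3.3%, against 1.79% of all and 2.99% for the genes tested. Of 63 windows of the genes called lower both ways, 3.17% held AP-1 letters and 1.59% the cyclic AMP response element. Of the 18 windows of genes called at all 3 ages (below), 4 held AP-1 letters (22.2%) and 2 the cyclic AMP response element (11.1%). These shares were not tested. A match is a description of the letters and not of binding.

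Beside 2.46% called higher and 0.639% lower of all genes tested, 5 of 22 injury transcription factors rose and 0 fell (median log2 change 1.38). Besides Atf3 they were Smad1, which carries bone morphogenetic protein signals, Klf6, Stat3 and, from outside the rule for named genes, Sox11. Smad1 was at 74.5, 102 and 57.1 CPM after injury and 15.4, 15.7 and 13.01 CPM in intact libraries (2.42 ± 0.40, adjusted p = 0.00432). Klf6 was at 167, 168 and 93.9 against 17.5, 39.3 and 5.50 CPM (3.07 ± 0.58, adjusted p = 0.0104). Stat3, the effector of interleukin-6 family cytokines, was at 420.03, 447 and 398 against 166, 126 and 197 CPM (1.36 ± 0.30, adjusted p = 0.0219), without overlap, but its call was lost without any 1 of the injured libraries. The list had 3 calls without any 1 injured library and 8 without intact replicate 2. Beside the same shares of all genes, 3 of the 23 tested genes of the gp130, JAK and STAT pathway rose and 0 fell. Beside Stat3 these were the receptor subunits Il6st (gp130) and Lifr, both without overlap. Il6st was at 530.3, 666 and 570 CPM against 180, 78.7 and 63.0 CPM, and Lifr at 830, 880 and 938 CPM against 282, 311 and 223 CPM. Their calls were lost without any 1 injured library and without intact replicate 3, that of Il6st also without intact replicate 2 and that of Lifr without intact replicate 1. Both also stand among 24 receptors for neurotrophic and related factors, of which 3 rose and 0 fell, so the 2 lists share these calls. The third was the activin and BMP type I receptor gene Acvr1, at 49.0, 94.9 and 46.3 CPM against 4.28, 19.7 and 0 CPM, a call lost without any 1 injured library and without intact replicate 1 or 3.

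Among 44 growth-associated and cytoskeletal genes, 13 rose and 0 fell (median 0.80), beside 2.46% called higher and 0.639% lower of all genes tested. In this list 5, 7 and 8 were called without injured replicate 2, 1 or 3, and 11 without intact replicate 2 (median 0.72). Tubb6, a class V beta tubulin, was at 302, 457 and 285 CPM after injury and 10.7, 11.8 and 28.5 CPM in intact libraries (4.29 ± 0.69, adjusted p = 0.00378). Flrt3, a membrane protein with roles in adhesion and FGF signalling, was at 328, 426 and 301 against 25.3, 11.8 and 32.5 CPM (3.80 ± 0.62, adjusted p = 0.00384). Not all neuronal cytoskeletal genes moved: Nefl, the light neurofilament subunit, was at 3344 to 4761 CPM after injury and 3840.2 to 7015 CPM in intact libraries, which overlap (-0.32 ± 0.35, adjusted p = 0.687).

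**Figure D2:**
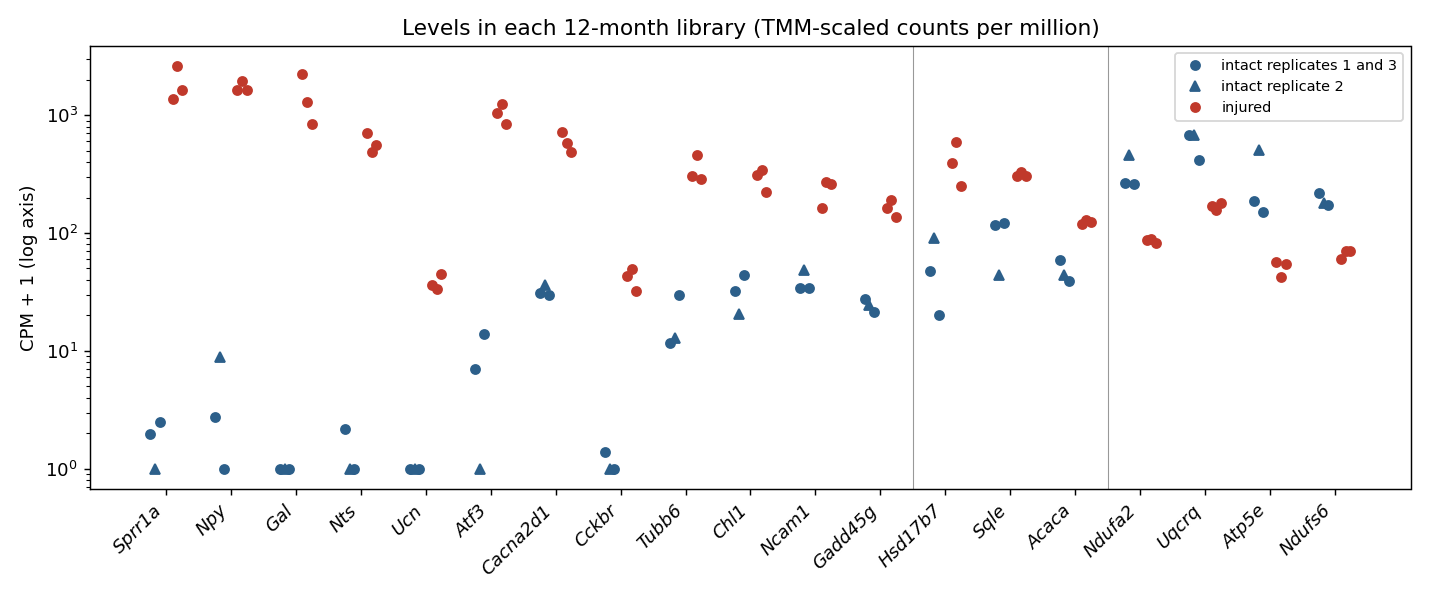
Each point is the TMM-scaled CPM plus 1 of a gene in 1 library, on a log axis, for 12 genes of the injury, peptide, channel, adhesion and stress groups, 3 of cholesterol and fatty acid synthesis (between the lines) and 4 nuclear genes of oxidative phosphorylation (right). Red points are injured and blue intact libraries, triangles intact replicate 2. The groups do not overlap in any of the 19 genes, and the last 4 are the ones with lower injured levels. Absence of overlap was a naming rule for Sprr1a, Gal, Ucn and Atp5e, and was seen in 26% of all genes tested.

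Of 36 adhesion and guidance genes, 9 rose and 0 fell (median 1.00), beside 2.46% called higher and 0.639% lower of all genes tested. The list also had 9 calls, of 37, without intact replicate 2, with a median of 1.64. There were 4 calls without intact replicate 3 or without injured replicate 1 or 2, and 5 without injured replicate 3. Ncam1, the neural cell adhesion molecule, was at 162, 271 and 257 CPM after injury and 33.1, 47.2 and 33.0 CPM in intact libraries (2.66 ± 0.37, adjusted p = 0.00172). Chl1, a close homologue of L1, was at 312, 342 and 223 against 30.96, 19.7 and 43.03 CPM (3.15 ± 0.55, adjusted p = 0.00621). Slit1, a secreted guidance cue, was at 260.4, 261 and 209 against 41.5, 74.8 and 10.5 CPM (2.68 ± 0.53, adjusted p = 0.0129).

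Few ion channel genes were called, as was true of all genes tested, of which 3.1% were called. The counts here and in the lists that follow stand beside 2.46% called higher and 0.639% called lower among all genes tested. The 1 of 37 potassium channel genes below is near the first of these shares. The sodium and transduction channel lists, with 13 and 16 genes tested, are too short to tell 0 calls from it. The channel gene with the lowest adjusted p was Cacna2d1, the alpha2delta-1 calcium channel subunit to which gabapentin binds (chromosome 5, 15934691 to 16374511). It was at 723, 576 and 489 CPM after injury and 30.2, 35.4 and 29.02 CPM in intact libraries. Its log2 change of 4.27 ± 0.39 had an adjusted p of 2.73e-05, and the replicates of each group lay close together. Of 15 calcium channel genes 2 rose, Cacna2d1 and Cacna1c (2.66 ± 0.68, adjusted p = 0.0423, lost without any 1 injured library and without intact replicate 2 or 3). Of 37 potassium channel genes 1 rose, Kcna6 (56.5, 37.1 and 61.0 against 10.9, 3.93 and 8.01 CPM), a call lost without intact replicate 3 and without injured replicate 1 or 3. Of 13 sodium channel and 16 transduction channel genes 0 were called with edgeR. Without intact replicate 2, 2 of the sodium channel genes were called higher, Scn3a (4.86, adjusted p = 0.0398) and Scn9a (1.38, adjusted p = 0.0356), against 3.19 and 0.35 with all 6 libraries. Scn4b was at 651 to 794 CPM after injury and 168 to 696 CPM in intact libraries, and the mechanoreceptor channel Piezo2 at 441 to 494 and 108 to 751 CPM, both overlapping. Of 36 transmitter receptor genes 2 rose. Cckbr, a cholecystokinin receptor, was at 42.6, 48.7 and 31.4 CPM against 2 counts in intact libraries, 153-fold higher (42.2 to 1266 from counting error alone) (adjusted p = 0.00116). Grm7, a metabotropic glutamate receptor, was at 65.9, 53.7 and 52.6 against 11.7, 15.7 and 21.02 CPM, a call lost without any 1 injured library and without intact replicate 1.

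Genes of the presynaptic machinery went both ways, with 3 of 41 higher and 2 lower (4 and 3 without intact replicate 2). Syt4, a synaptotagmin of peptide-containing vesicles, was at 761, 687 and 665 CPM after injury and 184, 150 and 180 CPM in intact libraries (2.03 ± 0.40, adjusted p = 0.0123), and Slc17a6, the vesicular glutamate transporter VGLUT2, at 331, 265 and 266 against 160, 66.9 and 83.6 CPM, a call lost without injured replicate 1 and without intact replicate 3. Rph3a (rabphilin) and Vamp1, both of the vesicle release apparatus, were lower under TMM scaling and higher under ERCC scaling, at 138 to 231 against 487 to 1389 CPM and 210 to 292 against 751 to 1133 CPM. Both calls were lost without any 1 injured library, and that of Vamp1 also without any 1 intact library.

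Stress and cell-cycle arrest genes were among the increases. Gadd45g, of the DNA damage-inducible Gadd45 family, was at 161, 189 and 135 CPM after injury and 26.3, 23.6 and 20.5 CPM in intact libraries (2.78 ± 0.49, adjusted p = 0.00637). Gadd45a was at 85.7, 86.8 and 51.9 against 16.4, 11.8 and 6.50 CPM, a call lost without injured replicate 2 and without intact replicate 3. These stand in a list of 35 cell death and p53 target genes with 6 higher and 0 lower. Of 20 genes that write, read or remove DNA methylation, 4 rose and 0 fell: Gadd45g, Gadd45a, the methyl-binding Zbtb38 and the maintenance methyltransferase Dnmt1. Zbtb38 was at 169, 176 and 142 against 69.5, 62.9 and 57.0 CPM, a call lost without injured replicate 1 or 2 and without intact replicate 3, and Dnmt1 at 49.9, 62.4 and 41.8 against 14.995, 7.87 and 0 CPM, a call lost without any 1 injured library. The list had 6 calls without intact replicate 2, all higher, with the demethylating enzymes Tet2 and Tet3 added. Of 30 interferon and MHC class I genes 2 rose, Oasl2 (41.2, 51.9 and 42.5 against 3.89, 0 and 0 CPM) and Mx1 (14.49, 12.6 and 9.25 CPM against 1 intact count, 90.5-fold higher with 16.1 to 3588 from counting error alone). The call of Mx1 was lost without injured replicate 1 or 2 and without intact replicate 1 or 3, and that of Oasl2 without any 1 injured library and without intact replicate 3.

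Genes of cholesterol and fatty acid synthesis were among the increases. Of 32 tested, 10 rose and 0 fell, 28 had a positive change, and the median was 1.11 against 0.14 for all genes. Hsd17b7, which reduces a sterol ketone late in the cholesterol pathway (chromosome 1, 169949535 to 169969241), was at 394, 596 and 250.3 CPM after injury and 46.2, 90.5 and 19.01 CPM in intact libraries (3.12 ± 0.50, adjusted p = 0.00364). Sqle, squalene epoxidase, was at 301, 329 and 302 against 116, 43.3 and 121 CPM (1.68 ± 0.32, adjusted p = 0.0113). Acaca, acetyl-CoA carboxylase, which makes the first committed precursor of fatty acids, was at 118, 128 and 122 against 57.4, 43.3 and 38.03 CPM (1.39 ± 0.26, adjusted p = 0.0109). None of the 3 overlapped between conditions, and their calls held without any 1 library. All 3 calls were lost in a fit of only the 12-month libraries. Those of Sqle and Acaca were also lost with the replicate number as a block, and that of Acaca with no filter. Of the 10 calls, 8 held without intact replicate 2, where 11 were made. The list had 3 calls without injured replicate 2, 5 without injured replicate 1, and 6 without intact replicate 1 or 3, without injured replicate 3 and under relative log expression or upper-quartile scaling. The promoter window of Hmgcs1, which makes the precursor of mevalonate, is shown for its sterol regulatory element, searched as TCACNCCAC on both strands, 137 bases before the start (chr13:119690174-119690262, plus strand, capitals for the match).
Hmgcs1: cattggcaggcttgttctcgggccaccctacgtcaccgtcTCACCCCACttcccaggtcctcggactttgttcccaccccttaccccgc
It was the 1 match among 27 windows of the 22 list members with a RefSeq promoter among those searched (3.7%), where 1.24% of all windows searched match. Hmgcs1, chosen here for its promoter, was at 555, 604 and 509 CPM after injury and 259, 216 and 216 CPM in intact libraries (1.27 ± 0.26, adjusted p = 0.0162).

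In glycolysis, 1 of 22 genes rose, beside 2.46% of all genes tested. It was Slc2a1, which encodes the glucose transporter GLUT1 (95.3, 113 and 67.2 against 20.4, 3.93 and 19.01 CPM, 2.45 ± 0.44, adjusted p = 0.00765). In fatty acid oxidation and the TCA cycle, 0 of 32 rose and 2 fell relative to other transcripts, Eci1 and Etfb, which serve fatty acid oxidation and both of which were higher under ERCC scaling. Eci1 was at 12.7, 16.1 and 10.97 against 48.7, 23.6 and 57.5 CPM and Etfb at 13.3, 14.9 and 19.9 against 38.4, 90.5 and 46.0 CPM. The call of Etfb was lost without any 1 injured library and that of Eci1 without injured replicate 1 or 3.

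The median change of nuclear genes of oxidative phosphorylation was below 0 under TMM, relative log expression and upper-quartile scaling, and above 0 under ERCC scaling (4.02). With TMM 11 of 79 were called lower and 0 higher, 72 had a negative change and the median was -0.85. Ndufa2, a subunit of complex I, was at 86.5, 87.4 and 81.6 CPM after injury and 266, 456 and 260.2 CPM in intact libraries (-1.93 ± 0.26, adjusted p = 0.0015). Uqcrq, a subunit of complex III (chromosome 11, 53427922 to 53430831), was at 170, 155 and 177 against 673, 673 and 414 CPM (-1.81 ± 0.26, adjusted p = 0.00217). Atp5e, the epsilon subunit of ATP synthase, was at 55.3, 41.7 and 54.0 against 186, 508 and 149 CPM (-2.45 ± 0.40, adjusted p = 0.00426). Ndufs6, another complex I subunit, was at 59.7, 69.2 and 69.7 against 219, 177 and 173 CPM (-1.52 ± 0.27, adjusted p = 0.00738). In all 4 the injured replicates lay within a narrow band below every intact library, and the calls held without any 1 of the 6 libraries. All 4 calls were lost in a fit of only the 12-month libraries, and those of Atp5e and Ndufs6 also with the replicate number as a block. Over the whole list the conditions did not overlap in 22.8% of genes, against 26% of all genes tested. For the group, the calls numbered 51 without intact replicate 2 (of 80, median -1.24), 7 without intact replicate 1, and 4, 5 and 5 without injured replicate 1, 2 or 3.

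The median change of cytosolic ribosomal protein genes was also below 0 under the same 3 scalings and above 0 under ERCC scaling (4.29). With TMM 13 of 84 were called lower and 0 higher, 81 had a negative change and the median was -0.68. Without intact replicate 2, 51 were called lower and the median was -1.02, without intact replicate 1 there were 8 calls, and without any 1 injured replicate 0 were called, with medians of -0.71, -0.70 and -0.66. Rps14 was at 102, 110 and 110 CPM after injury and 300.5, 252 and 256 CPM in intact libraries (-1.33 ± 0.26, adjusted p = 0.0121). Rpl36 was at 38.7, 45.1 and 41.98 against 106, 134 and 86.6 CPM (-1.35 ± 0.28, adjusted p = 0.0157), and Rps21 and Rps27 changed by -1.51 ± 0.33 and -1.39 ± 0.31. Each of these 4 had no overlap, and each call was lost without any 1 injured library. The conditions did not overlap in 26.2% of the list, near the 26% of all genes tested. Of 34 translation factors 1 rose and 1 was called lower, beside 2.46% and 0.639% of all genes tested. Fbl (fibrillarin) rose. Eef1a2 was called lower (468, 424 and 379 CPM in injured against 907 to 1031 CPM in intact libraries) and was higher under ERCC scaling. Both calls were lost without any 1 injured library and without intact replicate 3, and that of Eef1a2 also without intact replicate 1. The calls were 1 higher and 2 lower without intact replicate 2, the added one being Rack1, a protein of the small ribosomal subunit. The genome holds many processed copies of ribosomal protein genes, and reads shared with them may be assigned to either.

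Both groups consist of short transcripts, and transcript length moved with the injury effect over all genes. The median exon length was 1736.5 bp for ribosomal protein genes and 1675 bp for the oxidative phosphorylation genes, against 4226.5 bp for all genes tested. From the shortest to the longest of 4 equal groups of genes the median log2 change was -0.21, 0.15, 0.24 and 0.31, and without intact replicate 2 it was -0.39, 0.04, 0.25 and 0.50. Another 380 genes of the shortest group with at least 100 CPM had a median of -0.22, with 13 called lower. Their median was -0.47 without intact replicate 2, with 74 called lower. The part of length or RNA quality in the 2 groups was not tested.

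**Figure D3:**
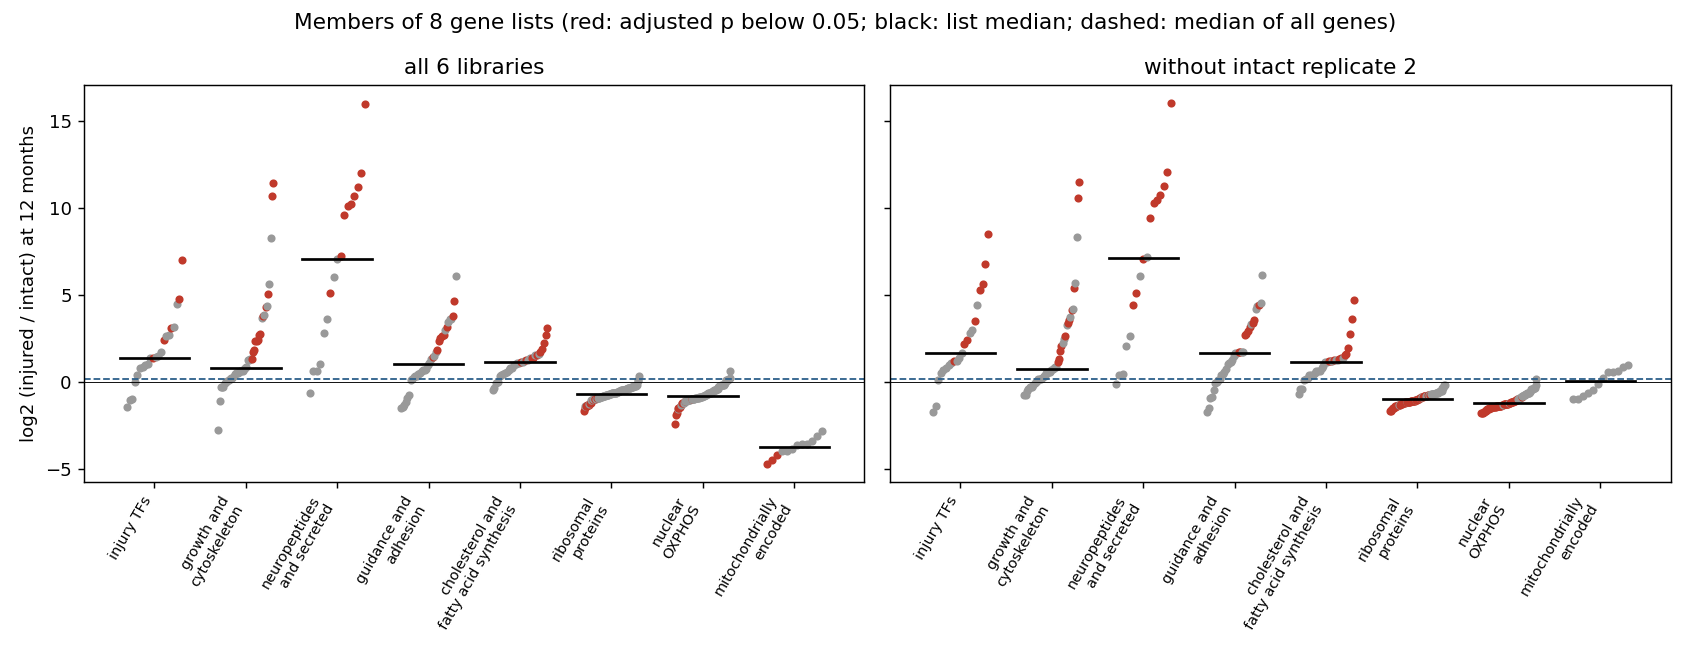
Each point is the log2 change (injured over intact, 12 months) of 1 gene in 8 lists, with all 6 libraries on the left and without intact replicate 2 on the right; red points have an adjusted p below 0.05, black lines are list medians and the dashed line is the median of all genes. The oxidative phosphorylation and ribosomal protein lists lie below 0 in both panels, with 11 and 13 calls on the left and 51 each on the right, while the mitochondrially encoded genes lie at -3.73 on the left and 0.07 on the right.

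The change of mitochondrially encoded transcripts rested on intact replicate 2. With all 6 libraries all 12 had a negative change (median -3.73), and 3 were called lower, mt-Rnr1, mt-Rnr2 and mt-Nd2. Without intact replicate 2, 6 of the 12 had a positive change, 0 were called with edgeR and the median was 0.07. mt-Nd2, a complex I subunit, was at 259, 179 and 222 CPM after injury and 228, 14329 and 231 CPM in intact libraries. Without intact replicate 1 or without intact replicate 3, where the deviating library weighs more, 10 of the 12 were called, and without any 1 injured library 0. Under ERCC scaling the median was 3.75.

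The 12 largest decreases relative to other transcripts included genes of 7S RNA, the RNA of the signal recognition particle. All 12 had a positive estimate under ERCC scaling, and Atp5e, Ogfrl1 and Caly passed the test there. Gm26461 (chromosome 9, 88553236 to 88553525) was at 3.29, 1.98 and 2.91 CPM after injury and 63.7, 216 and 44.0 CPM in intact libraries (-5.24 ± 0.75, adjusted p = 0.00212). Rn7s1, a 7S RNA gene (chromosome 12, 69159295 to 69159594), was at 0.896, 0.849 and 0.685 against 19.3, 31.5 and 10.01 CPM (-4.54 ± 0.74, adjusted p = 0.00426). Its copy Rn7s2 was at 0.597 to 1.37 against 15.01 to 62.9 CPM, and reads of such copies cannot be assigned with certainty. Mir6236 and Gm23935 were at 31.01 to 76.9 and 88.1 to 137 CPM in injured libraries, at 244 to 356 and 573 to 585 CPM in intact replicates 1 and 3, and at 10796 and 21729 CPM in intact replicate 2. Their log2 changes of -6.21 and -5.99 were -2.59 and -2.32 without it, and both calls were lost without any 1 injured library. Those of Rn7s2 were lost without injured replicate 1 or 2. None of the 12 overlapped between injured and intact libraries, which was a rule for entry and not a result. The others of the 12 were Atp5e and the genes Fam196b, Gsta4, Gm4604, Nexn, Ogfrl1 and Caly, with changes from -5.10 (Fam196b) to -2.31 (Caly). The calls of these 6 were lost without any 1 injured library, those of Fam196b and Caly also without intact replicate 1 or 3 and those of Gsta4 and Gm4604 without intact replicate 3.

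Other pathways showed no call with all 6 libraries. In the integrated stress and unfolded protein response (34 genes tested), heat shock and proteostasis (28), axonal transport (28), histone deacetylases and chromatin (26), resting nociceptor peptides (13) and sensory identity transcription factors (21), 0 were called with edgeR, and the same held for 31 proteasome genes. Their medians ran from -0.94 for the identity factors to 0.63 for the nociceptor peptides, which were -0.44 and 0.74 without intact replicate 2. Without that library 6 proteasome genes were called lower. Of the nociceptor peptides, Vgf, which encodes a precursor of secreted neuropeptides, was called higher (3.35, adjusted p = 0.0324, against 2.09 and adjusted p = 0.179 with all 6). In axonal transport, Dync1h1, the heavy chain of dynein, was called higher (1.69) and Dctn3, a dynactin subunit, lower (-0.94). The mitochondrial chaperonin gene Hspe1 (-1.36) and the histone deacetylase gene Hdac11 (-1.13) were also called lower. The stress response and identity factor lists had 0 calls either way (edgeR). Calca, the CGRP precursor of peptidergic nociceptors, was at 2193, 277 and 2890.1 CPM after injury and 992, 315 and 792 CPM in intact libraries, and the 2 groups overlap. 

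Marker genes place the RNA in sensory neurons. All 15 general neuronal markers were detected in both conditions and 0 were called (1, Scn9a, without intact replicate 2), with summed levels of 21590 to 26440 CPM after injury and 17690 to 20560 CPM in intact libraries. Of the marker lists for neuronal subtypes only Adcyap1, a peptidergic marker that injury also induces, was called. Summed NF (neurofilament) markers were at 2068, 2436 and 1902 CPM after injury and 4942, 18350 and 1193 CPM in intact libraries. Peptidergic markers were at 3233, 790 and 4372 against 1335, 452 and 1164 CPM, with 12 of 13 changes positive (median 2.82). Positive changes numbered 6 of 13 for NF, 4 of 14 for non-peptidergic and 6 of 8 for TH-neuron markers. The part of the subtype mix in the results was not tested. Of the 14 satellite glia markers 0 were called (edgeR). Their sum was 289, 1120 and 937 CPM after injury and 110, 1814 and 211 CPM in intact libraries, with Apoe at 1.05, 701 and 550.0 against 3.51, 1169 and 13.01 CPM. Schwann cell markers summed to 922 to 1067 CPM after injury and to 594, 1306 and 1006 CPM in intact libraries. Of 14, Mag and Pllp were at 0 in all 6, while 12 had counts in injured and 11 in intact libraries. Immune markers summed to 8.49 to 10.1 CPM after injury and to 13.2, 70.8 and 1.00 CPM in intact libraries. Of 18, Ptprc, C1qa, C1qc, Fcer1g, Cd163 and S100a9 were at 0 in all 6, while 12 had counts in injured and 7 in intact libraries. Among those detected, Lyz2 reached 55.1 CPM and Csf1r 15.7 CPM, both in intact replicate 2. Fibroblast markers were at 68.0 to 113 CPM after injury and 35.6, 165 and 1.501 CPM in intact libraries, and endothelial and mural markers at 46.0 to 74.2 and 41.1 to 161 CPM. Intact replicate 2 had the highest sum of each of these 5 lists of other cells. Their part in the results was not tested. The peptide, growth and lipid lists had 9, 13 and 10 calls with that library and 10, 11 and 11 without it.

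The injury effect at 12 months was set beside that at 1 and 8 months, which have their own intact libraries, in the same fit. In that fit edgeR called 33 genes at 1 month (0.234%) and 138 at 8 months (0.98%), and the counts at different ages cannot be compared as effect sizes. Of the 347 genes higher at 12 months, 306 (88.2%) changed in the same direction at 1 month and 266 (76.7%) at 8 months, against 64.1% and 56.2% of all genes. Of the 90 lower genes, 77 (85.6%) and 61 (67.8%) did. The 23 genes called at all 3 ages include Atf3, Sprr1a, Npy, Nts, Ucn, Cacna2d1, Cckbr, Flrt3, Slc6a4, Ecel1 and Car1. Atf3 changed by 5.28 and 5.07 on the log2 scale at 1 and 8 months, Sprr1a by 13.06 and 10.49, and Cacna2d1 by 2.51 and 1.73, against 4.27 at 12 months.

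Other groups had no call at the younger ages. The cholesterol and fatty acid list had 0 calls (edgeR) and medians of 0.27 and 0.21 at 1 and 8 months, against 1.11 at 12 months; Hsd17b7 changed by 1.23 and 1.30. The ribosomal protein list had 0 calls and medians of -0.36 and 0.10, and the oxidative phosphorylation list 0 calls and medians of -0.37 and 0.04. At 1 month 79 of the 84 ribosomal protein and 75 of the 79 oxidative phosphorylation genes had a negative change, and at 8 months 25 and 36 did, against 81 and 72 at 12 months. A difference between ages is not shown by these counts. The test of it, the effect at 12 months against the mean effect at 1 and 8 months, called 0 of 14084 genes with edgeR (1361 at an unadjusted p below 0.05, of which 12 of the 32 lipid genes, 20 of 84 ribosomal protein and 15 of 79 oxidative phosphorylation genes). DESeq2 called 194 and limma-voom 1. Without intact replicate 2, 31 genes were called (0.209%). They include Abca1, the cholesterol exporter, with a difference in effect of 3.65 on the log2 scale (12 months minus the mean of the other ages), and the subunits Ndufa2 (-1.25) and Uqcr11 (-1.58). Without intact replicate 1, 138 were called, and without intact replicate 3, 2.

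**Figure D4:**
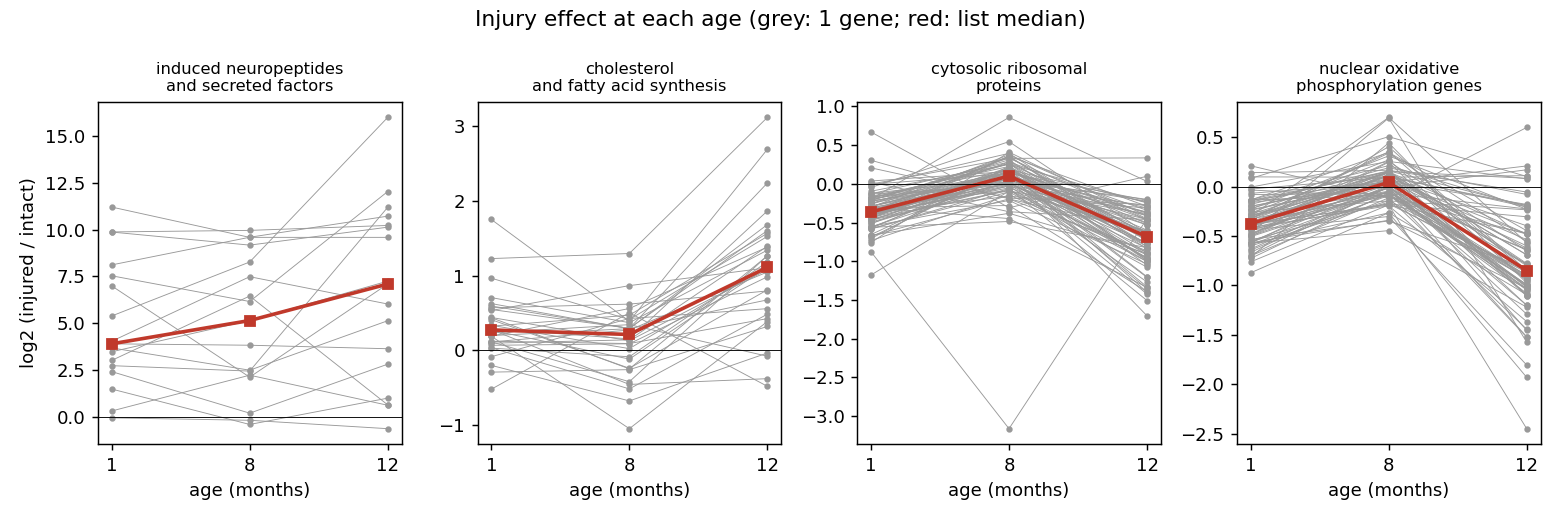
Each grey line is the log2 change (injured over intact) of 1 gene at 1, 8 and 12 months, and the red squares are list medians, for 4 lists with separate vertical scales. The peptide list is high at all ages (3.90, 5.14 and 7.09), the last being 5.13 with genes absent from intact 12-month libraries set at their floor. The cholesterol and fatty acid list is at 0.27, 0.21 and 1.11. The ribosomal protein list is at -0.36, 0.10 and -0.68, and the oxidative phosphorylation list at -0.37, 0.04 and -0.85. These differences between ages were not called with all libraries.

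Single cells of 1-year-old mice were set beside the low-input comparison. Whether they came from the same animals as the low-input libraries is not given. Counts per cell ran from 0 to 22890000, with a median of 4079000. There are 22 injured cells (1 without counts) and 8 intact cells, with no animal named, so each condition is 1 pooled sample, no test was made, and the intervals cover counting error only. Of the 322 genes higher both ways in the low-input libraries, 201 (62.4%) were higher in the pooled injured cells, against 51.5% of all genes, and of the 69 lower genes 25 (36.2%) were higher. Nts was at 46.7 CPM (95% exact Poisson interval 45.3 to 48.1) in injured and 0.746 CPM (0.538 to 1.01) in intact cells, with counts in 10 of 22 and 5 of 8 cells. Sprr1a was at 5.40 against 0.178 CPM and Npy at 1.88 against 0.373 CPM, far below their low-input levels. Gal, absent from the intact low-input libraries, was at 44.4 CPM after injury and 12.6 CPM in intact cells, with counts in 14 of 22 and 7 of 8. Atf3 was at 80.6 and 62.5 CPM, so the intact cells held the injury marker at a level close to that of the injured ones. Adcyap1 ran the other way, at 32.1 and 93.9 CPM.

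The direction in the pooled single cells was counted for 4 of the gene groups. Of the 32 cholesterol and fatty acid genes 28 were higher in injured cells, with Sqle at 359 against 226 CPM and Hsd17b7 at 81.6 against 54.1 CPM. Of the 79 oxidative phosphorylation genes 20 (25.3%) were higher in injured cells, with Ndufa2 at 130 against 156 CPM and Uqcrq at 255 against 304 CPM, while Atp5e was at 85.18 against 85.04 CPM. Of the 84 ribosomal protein genes 52 (61.9%) were higher in injured cells, with Rps14 at 134 against 117 CPM. Of the 12 mitochondrially encoded genes 1 (8.33%) was higher in injured cells. Most of the lipid and nuclear oxidative phosphorylation genes thus had the sign that the 6 low-input libraries gave under TMM scaling, and most ribosomal protein genes had the opposite one. Most mitochondrially encoded genes also had the sign of the 6 libraries, but that sign rested on intact replicate 2. Without that library 6 of the 12 had a positive change in the low-input comparison (median 0.07).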

How the data were processed

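RNA of mouse dorsal root ganglion neurons was analysed from 18 low-input libraries and 30 single cells at 1 year. The deposited values are raw fragment counts per gene, not normalized, made by the authors with featureCounts 1.5.2 on GENCODE vM16, per the file headers. Exon lengths, another column of the deposited table per the file headers, were used only to group genes by length. The submitters' processing notes also name Trim Galore and STAR, and the mm10 build. Whether counting used strand, and how reads matching several places were counted, is not given in the sources used here, so overlapping, antisense and copied genes are uncertain. Of the value columns, 39 were not used. Of the 12-month samples, 3 were deposited more than once under 1 name and were counted once. For the low-input group the labels give 12 months and the names 1 year.

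The 92 ERCC rows and CT010467.1 were removed before scaling. Counts were filtered with filterByExpr, scaled by TMM and fitted with edgeR 4.0.16 (R 4.3.3; robust glmQLFit, glmQLFTest) as 6 group means over all 18 libraries, which share 1 estimate of spread on 12 residual degrees of freedom (common biological coefficient of variation 0.542). Benjamini-Hochberg adjustment ran over all 14084 genes tested, and a gene was called at an adjusted p below 0.05. Genes with no intact count were compared with a floor of 3 counts over the group, which covers counting error only, as do the 95% exact Poisson intervals. Alternatives were other scalings, DESeq2 1.42.0, limma-voom (limma 3.58.1), other filters, the 6 libraries alone, the replicate number as a block and each library left out. The fit was tested on simulated counts.

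The comparison, its gene lists (37 by hand, 3 by name pattern) and the rules were chosen with earlier results of these data known. Named genes were first the 12 largest increases and 12 largest decreases among genes called with and without intact replicate 2. Only genes without overlap and with a mean of at least 5 CPM in the higher group were eligible. Then came up to 4 called members of each list by adjusted p. Where fewer than 2 members of a list were called, its most abundant uncalled members were added to make 2. Promoters are from RefSeq (GRCm38.p6), without those on chromosome 18. Some genes of the lists are counted but not reported here by name.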

Additional observations from a re-analysis of the deposited data

How the results depend on the processing

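The call counts depended on the settings. Directions of the named called genes held in every alternative but ERCC scaling, where every lower one reversed. In place of 437 genes (347 higher, 90 lower), DESeq2 called 1238 (731 and 507), no filter 901 (672 and 229) and a fit of only the 12-month libraries 65 (63 and 2). Lower calls numbered 148 with relative log expression scaling, 147 with upper-quartile scaling, 222 with limma-voom and 149 with a filter of 5 CPM in 3 libraries. ERCC scaling called 13506, all higher and 0 lower. The fits without single libraries gave 106 to 1009 calls, 96 to 587 higher and 8 to 422 lower. The test of 12 months against the other ages gave 3910 calls with ERCC scaling, 194 with DESeq2, 1 with limma-voom, 261 with no filter and 0 to 138 without 1 library. The cause of these shifts was not tested.

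With the replicate block within each age, 65 genes were called, 61 higher and 4 lower. Deviations of same-numbered injured and intact libraries from their group means had correlations of -0.086, -0.066 and 0.051 over 4582 genes. The labels do not say whether same-numbered libraries share an animal, and 3 libraries per group are too few for these correlations to decide it. The numbers were not treated as pairs in the main fit.

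Of the 74 called genes named, 0 reversed in any alternative but ERCC scaling, where all 27 lower ones did. Their log2 changes there were 1.36 for Mir6236, 1.55 for Gm23935, 0.75 for Gm26461, 0.56 for Fam196b, 1.05 for Rn7s2, 0.71 for Rn7s1, 2.503 for Gsta4, 2.60 for Gm4604, 3.405 for Atp5e, 2.97 for Nexn, 3.501 for Ogfrl1, 2.86 for Caly, 3.89 for Rph3a, 3.60 for Vamp1, 3.21 for Eci1, 3.95 for Etfb, 4.06 for Eef1a2, 2.91 for mt-Rnr1, 3.41 for mt-Rnr2, 3.46 for mt-Nd2, 3.84 for Rps14, 3.95 for Rpl36, 3.65 for Rps21, 3.78 for Rps27, 3.56 for Ndufa2, 3.43 for Uqcrq and 3.62 for Ndufs6. List medians that reversed were those of the ribosomal protein (4.29), oxidative phosphorylation (4.02) and mitochondrially encoded genes (3.75) under ERCC scaling, and that of the last (0.067) without intact replicate 2, where leaving out other libraries took it as low as -4.34. Calls lost among the 74 numbered 48 with the 12-month libraries alone and with the block, 24 with limma-voom, 0 with DESeq2, and 37, 37, 33, 12, 6 and 24 without injured replicates 1 to 3 and intact replicates 1 to 3. List counts without libraries other than intact replicate 2 were chosen after seeing the data.

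Leaving out 1 library, injured minus intact differences kept their sign for the CT010467.1 share (-53.4 to -38.6), ERCC share (-16.99 to -13.1), counts left (2873000 to 4870000), genes detected (5287 to 7497) and mitochondrial share (-19.4 to -0.613), shares in percentage points. Depth limits the intact group: 1 count of intact replicate 2 is worth 3.93 CPM, so low genes could not be read there.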
